A study of Arabidopsis thaliana with 9 samples.

Results

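Oil bodies are the organelles in which a plant seed stores its oil. Each is a droplet of triacylglycerol inside a single layer of phospholipid, coated by proteins that keep the droplets apart and set their size. Oleosins are the main coat proteins, and caleosins, which bind calcium, and steroleosins, which resemble steroid dehydrogenases, make up most of the rest. In Arabidopsis their genes are switched on while the embryo matures, and the oil is used up after germination, so the seed-type coat proteins are not a usual product of seedlings that have turned green. Here 9 such genes were followed in seedlings that lack part of Polycomb Repressive Complex 2 (PRC2), the complex that places the repressive histone mark H3K27me3 on genes. They were the oleosins OLEO1 (AT4G25140), OLEO2 (AT5G40420), OLEO3 (AT5G51210), OLEO4 (AT3G27660) and OLEO5 (AT3G01570), the further oleosin genes AT3G18570 and AT1G48990, the caleosin CLO1 (AT4G26740, also called ATS1) and the steroleosin HSD1 (AT5G50600). These 9 genes were chosen by locus from the 30361 genes of the array, for what they encode and with earlier results of these data known. All 9 were on the array.

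Total RNA was taken from pools of 10 to 12 seedlings at 12 days and hybridised to 9 NimbleGen expression arrays with 1 dye, 1 pool to an array. There were 3 pools of the wildtype, Col, and 3 of each PRC2-deficient genotype, siFIE and clf swn. All plants grew on MS agar at 22 °C with 16 h of light and 8 h of dark. The siFIE plants were first-generation (T1) transformants in which RNA interference targets FIE, the ESC-type subunit of PRC2, and plants of intermediate phenotype were taken from plates with 50 mg/L kanamycin. T1 plants each descend from their own transformation event, so a pool mixes several. The sources differ on their ecotype, which the growth protocol gives as C24 and the methods as Col. In the comparison of siFIE with Col, kanamycin selection and FIE RNA interference cannot be told apart, nor, if the plants are C24, can ecotype, and no C24 wildtype array was analysed here. The clf swn plants lack CURLY LEAF (CLF) and SWINGER (SWN), the Enhancer of Zeste homologues that carry out the methylation in seedlings. This double mutant is sterile and was picked from a segregating family, and its alleles are written clf-7 swn-28 in one place and swn-7 clf-28 in another.

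The targeted genes followed the labels. FIE had RMA signals (RMA is the background-corrected and summarised array intensity per gene, on a linear scale in arbitrary units) of 1976, 1768 and 1786 in Col and 244, 281 and 321 in siFIE, a 6.57-fold lower level that was called at an adjusted p of 1.4e-06. Fitted from the probe signals, with or without background correction, this decrease stayed under 2-fold and was not called. By RT-qPCR, the methods give the FIE mRNA of the siFIE plants as at most 10% of the level in Col. SWN was 56.5-fold lower and CLF 2.90-fold lower in clf swn than in Col, both called. Across genes, Pearson's r of log2 RMA signals was 0.991 to 0.994 between pools of 1 genotype and 0.915 to 0.978 between genotypes. Genes are not independent replicates, and nothing in the labels says that the pools came from separate cultures, so the tests measure the spread between these pools. Throughout, a gene was called, and is said to have risen or fallen, if its limma test (two-sided, 3 group means, all 9 arrays) stayed under 0.05 after Benjamini-Hochberg adjustment across the 30361 genes and the change was more than 2-fold.

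All 9 oil body genes rose in clf swn. The increase over Col was between 101-fold (OLEO4) and 807-fold (OLEO2), and in each of the 9 genes the lowest clf swn pool was above the highest Col pool. Of all genes on the array 8.78% were called up in this comparison, 30.0% had their lowest clf swn pool above their highest Col pool, and 0.537% rose by more than 64-fold, as all 9 of these did. The median log2 difference of the 9 was 8.68, beside 0.05 over all genes. In siFIE 2 of the 9 rose, OLEO1 by 2.83-fold and OLEO2 by 12.6-fold, where 4.51% of all genes were called up. None of the 9 fell in either mutant, where 12.8% of all genes in clf swn and 3.19% in siFIE were called down.

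**Figure D1:**
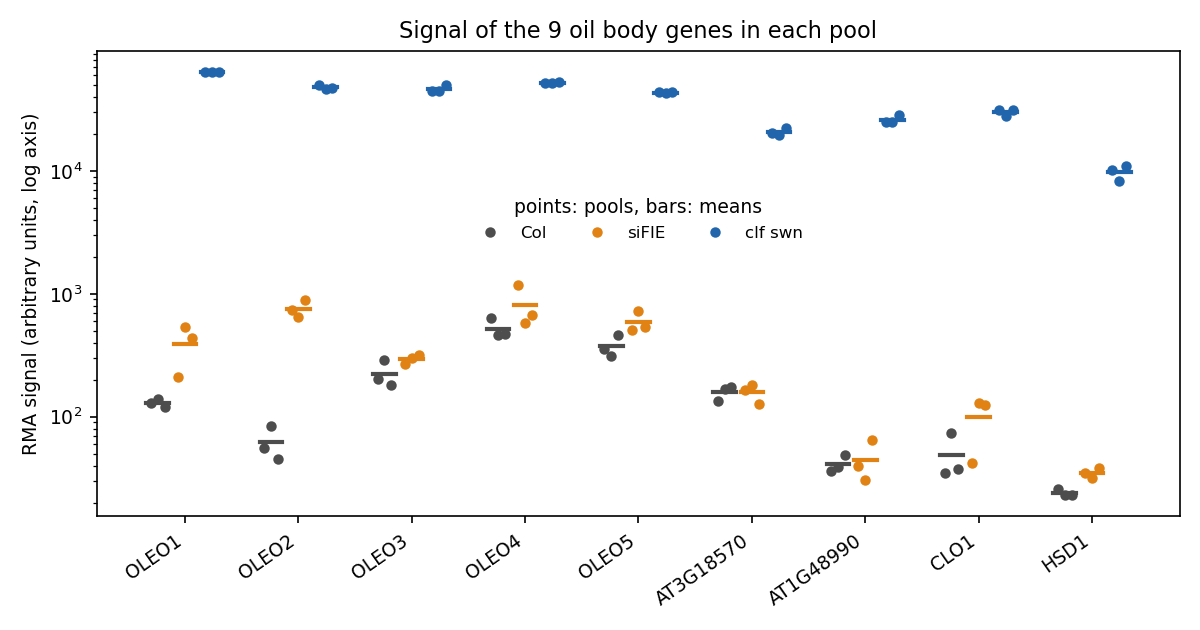
RMA signal (arbitrary units, log axis) of each of the 9 oil body genes in each pool, with the 3 pools of Col, siFIE and clf swn as points and the mean of each group as a bar. The lowest clf swn point is HSD1 at 8338 and the highest siFIE or Col point is OLEO4 at 1178; levels are to be compared between groups within a gene, not between genes.

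OLEO1 encodes a major oleosin of the Arabidopsis seed. Its RMA signal was 129, 139 and 119 in the Col pools, 209, 533 and 435 in the siFIE pools, and 63919 in each of the 3 clf swn pools. The Col pools were lowest, every siFIE pool lay above them, and the clf swn pools stood far above both without overlap. The identical clf swn values were the highest RMA value of any gene on those 3 arrays, so they mark the top of the scale, and 2 of the 9 probe readings behind them were saturated, both in clf swn replicate 3. The difference between clf swn and Col was 496-fold (log2 8.95, SE 0.29, adjusted p = 1.8e-08) and is bounded by that ceiling. In siFIE the gene rose by 2.83-fold (log2 1.50, SE 0.29, adjusted p = 0.0056, 95% interval 1.80 to 4.44-fold). This call was lost when the gene was fitted from the probe signals, with or without background correction (1.50-fold without it), and with Student's test (adjusted p = 0.11). The limma fit uses a spread shared by all groups, to which the identical clf swn values of OLEO1 add nothing. Its SE, adjusted p and interval in siFIE are therefore likely too small.

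OLEO2, a second seed oleosin, had the highest fold of the 9 in both mutants, with RMA as with uncorrected probe signals. Its signal was 55.4, 84.0 and 45.4 in Col, 736, 647 and 891 in siFIE, and 50445, 46716 and 47249 in clf swn. The 3 groups were fully separated, with siFIE between the other two. It rose by 12.6-fold in siFIE (log2 3.66, SE 0.22, adjusted p = 6.4e-06, 95% interval 9.01 to 17.7-fold). The increase in clf swn was 807-fold (log2 9.66, SE 0.22, adjusted p = 2.3e-09). Without background correction the siFIE increase was 2.35-fold and still called, alone among the 9, where 2.22% of all genes were called up on that scale. The clf swn increase was then 143-fold, beside 140-fold for OLEO1, whose clf swn signal was at the top of the scale. The rank of OLEO2 above OLEO1 in clf swn is therefore not settled.

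OLEO3 had signals of 201, 289 and 181 in Col, 269, 298 and 320 in siFIE, and 44295, 44582 and 49767 in clf swn. The siFIE and Col pools overlapped, and the clf swn pools lay apart from both. The clf swn increase was 210-fold (log2 7.72, SE 0.17, adjusted p = 2.4e-09). The siFIE value was 1.35-fold that of Col, which did not pass (adjusted p = 0.12).

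OLEO4 gave 630, 459 and 473 in Col, 1178, 577 and 675 in siFIE, and 51575, 51630 and 52787 in clf swn. One siFIE pool, replicate 1, was well above the rest, while the other two sat beside the highest Col pool. The gene rose by 101-fold in clf swn (log2 6.66, SE 0.25, adjusted p = 3.9e-08), and in siFIE it was at 1.50-fold of Col with an adjusted p of 0.13.

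OLEO5 was at 354, 309 and 463 in Col, at 512, 727 and 541 in siFIE, and at 43802, 42867 and 43536 in clf swn. Here every siFIE pool exceeded every Col pool, but by a small margin. The siFIE difference was 1.58-fold with an adjusted p of 0.028, below the 2-fold limit, so the gene was not called. The clf swn increase was 117-fold (log2 6.87, SE 0.18, adjusted p = 5.7e-09).

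The further oleosin genes behaved alike in one respect, in that siFIE pools were mixed with Col pools. AT3G18570 was at 134, 169 and 174 in Col, at 164, 181 and 127 in siFIE, and at 20162, 19567 and 22417 in clf swn. Its siFIE to Col ratio was 0.985 (95% interval 0.765 to 1.27, adjusted p = 0.94), and its clf swn increase 131-fold (log2 7.03, SE 0.16, adjusted p = 2.8e-09). AT1G48990 was dim in Col, with signals of 36.3, 38.6 and 49.2. Its siFIE pools, at 39.4, 30.6 and 64.3, spread around the same level, and its clf swn pools reached 24926, 24962 and 28429. The siFIE to Col ratio was 1.04 (95% interval 0.707 to 1.53, adjusted p = 0.91), and the clf swn increase was 635-fold (log2 9.31, SE 0.25, adjusted p = 6.1e-09). These intervals cover the spread of the RMA signals only, and a change in a transcript too dim to be measured would not show in them.

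AT1G48990 is also the one of the 9 genes for which the ChIP experiment of the same work gives a sequence under a region where tagged FIE and H3K27me3 were both found within the gene. It is shown because it is DNA of an oleosin gene whose RNA signal was low in Col and siFIE and high in clf swn. The ChIP was done on seedlings of the C24 ecotype and not on the pools of these arrays. The regions used here are those listed with both FIE and H3K27me3, so a gene without one may still carry H3K27me3. The same work also lists all H3K27me3 peaks and all FIE peaks, which are not reported here. The region is chr1:18121570-18121970 in TAIR9, the strand of the letters is not given, and bases 100 to 399 of the 399 listed are printed. Capitals mark the RY motif CATGCA, the element bound by B3-domain seed regulators such as ABI3, FUS3 and LEC2.
AT1G48990 region: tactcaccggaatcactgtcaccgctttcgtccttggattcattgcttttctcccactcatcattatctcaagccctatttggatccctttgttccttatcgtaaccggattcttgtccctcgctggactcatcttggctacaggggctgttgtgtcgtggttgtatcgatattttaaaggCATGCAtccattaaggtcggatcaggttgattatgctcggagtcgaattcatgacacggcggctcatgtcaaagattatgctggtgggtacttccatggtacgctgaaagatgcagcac

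On both strands, these 300 bases held 1 match to the RY motif CATGCA and none to the G-box CACGTG, the abscisic acid response core ACGTG, which lies inside CACGTG, or the GAGA motif GAGAGA. Among the 703 listed regions long enough for a window of that length, 13.9% held CATGCA, 14.5% CACGTG, 39.4% ACGTG and 37.4% GAGAGA. A match is a description of the letters and not a binding site, and a missing match says only that the letters are not in this window.

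CLO1 encodes the seed caleosin, which binds calcium at the oil body surface and has peroxygenase activity. Its signal was 34.6, 74.1 and 37.6 in Col, 42.3, 128 and 125 in siFIE, and 31048, 28183 and 31314 in clf swn. The siFIE pools were split, with replicate 1 inside the Col range and the other two above it. It was the most variable of the 9 genes in Col and siFIE, its highest pool being 2.14 times its lowest in Col and 3.02 times in siFIE, but not in clf swn (1.11 times), where HSD1 varied most (1.31 times). The increase in clf swn was 657-fold (log2 9.36, SE 0.43, adjusted p = 1.6e-07). In siFIE the ratio was 1.91 (95% interval 0.982 to 3.73, adjusted p = 0.17). Without siFIE replicate 1 the difference was log2 1.46 with an adjusted p of 0.010, which would pass.

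HSD1 encodes a steroleosin, a dehydrogenase anchored in the oil body. It was at 25.6, 22.9 and 23.1 in Col, at 34.6, 31.9 and 37.9 in siFIE, and at 10186, 8338 and 10882 in clf swn. The siFIE pools were all slightly above the Col pools, and the clf swn pools far above both. The clf swn increase was 409-fold (log2 8.68, SE 0.13, adjusted p = 3.6e-10). The siFIE difference of 1.46-fold had an adjusted p of 0.018 and was under 2-fold. HSD1 has a near copy, AT5G50700, to which the reference annotation gives the same symbol, and probes of either gene could take up signal of the other. AT5G50700 was at 46.2, 24.7 and 30.8 in Col, at 43.2, 73.5 and 55.2 in siFIE, and at 25095, 24208 and 28541 in clf swn, a 790-fold increase in clf swn (adjusted p = 5.6e-09). It was named for its likeness to HSD1.

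In 4 of the 9 genes (OLEO1, OLEO2, OLEO5 and HSD1) every siFIE pool lay above every Col pool, as in 18.4% of all genes. The same 4 passed the adjusted p alone, as did 10.2% of all genes with a higher siFIE level. The median log2 difference of the 9 between siFIE and Col was 0.58, beside -0.02 over all genes. The remaining oil body genes gave ratios between 0.985 and 1.91. The highest and the lowest pool of a group differed by a median of 1.37-fold in Col, 1.11-fold in clf swn and 1.43-fold among the siFIE pools over the 9 genes. No siFIE pool was the lowest or the highest for all of them: siFIE replicate 1 was the lowest for 4 genes and the highest for 1, and siFIE replicate 2 the lowest for 4 and the highest for 4.

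**Figure D2:**
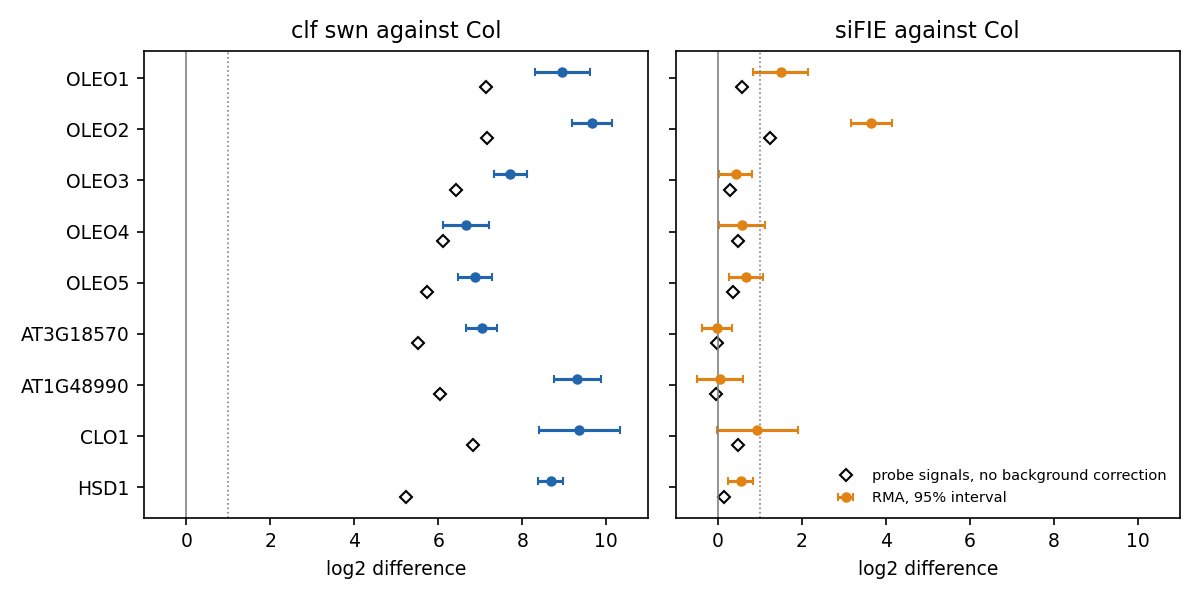
Log2 difference from Col of the 9 oil body genes in clf swn (left) and siFIE (right), as filled points with 95% intervals for the RMA signals and as open diamonds for probe signals without background correction; the dotted line marks 2-fold. In clf swn every point lies above 5, and in siFIE only OLEO2 lies above 2-fold on both scales.

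The direct comparison of the mutants tested whether their levels differ. Kanamycin selection, given for siFIE only, cannot be told apart from genotype here either, nor can ecotype if the siFIE plants are C24. All 9 genes were higher in clf swn than in siFIE, by 64-fold (OLEO2) to 611-fold (AT1G48990), with adjusted p between 9.8e-10 and 5.1e-07, where 6.82% of all genes were called up. For OLEO1 the ratio was 175, for OLEO3 156, for OLEO4 67.4 and for OLEO5 74.1. AT3G18570 differed by 133-fold, CLO1 by 343-fold and HSD1 by 281-fold. Every clf swn pool lay above every siFIE pool in all 9 genes, as in 27.9% of all genes. The median log2 difference was 7.29, beside 0.06 over all genes. Without background correction all 9 were still called, at 34.3-fold to 93.6-fold, where 3.84% of all genes were called up.

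The size of these folds depended on how the probe signals were processed. HSD1 was in the lowest 2.98% of all genes in Col and AT1G48990 in the lowest 14.1%, whereas OLEO4, the brightest of the 9 there, reached the lowest 41.6%. Probe signals without background correction gave clf swn increases between 37.7-fold (HSD1) and 143-fold (OLEO2), with all 9 genes called where 5.15% of all genes were called up, and a median log2 difference of 6.12. The order of the genes changed with it. AT1G48990 went from 635-fold to 65.4-fold, OLEO4 from 101-fold to 69.5-fold. The files hold no flag for a signal above background, so the Col and siFIE levels of the dimmest genes are not known to exceed it.

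The 25 probes of the 9 genes, 3 for each of 7 genes and 2 for AT3G18570 and HSD1, all moved the same way in clf swn. In each of the 25 the clf swn pools lay entirely above the Col pools, as in 27.5% of all probes. The lowest increase was 16.2-fold in quantile-normalised probe signals without background correction. The highest among probes with no saturated reading was 151-fold, and the OLEO1 probes at positions 137 and 305, saturated in clf swn replicate 3, read 167-fold and 160-fold. HSD1 gave the lowest, its probes rising 87.9-fold at position 199 of the target sequence and 16.2-fold at position 1218. In siFIE 14 of the 25 probes had every pool above every Col pool, as did 16.8% of the 72000 probes of the array, and the ratios of the 25 to Col ran from 0.852 to 4.01. Only 2 probes exceeded 2-fold in siFIE, both of OLEO2. Scanner signals of the OLEO2 probe at position 591 were 237, 445 and 309 in Col and 882, 1663 and 1556 in siFIE, a 4.01-fold difference after quantile normalisation. The probe at position 213 rose by 3.13-fold. The third OLEO2 probe, at position 35, gave 277, 370 and 327 in Col and 299, 381 and 342 in siFIE, a ratio of 1.03, so the OLEO2 increase in siFIE came from 2 of its 3 probes. In clf swn the 3 probes rose by 132-fold, 148-fold and 151-fold.

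**Figure D3:**
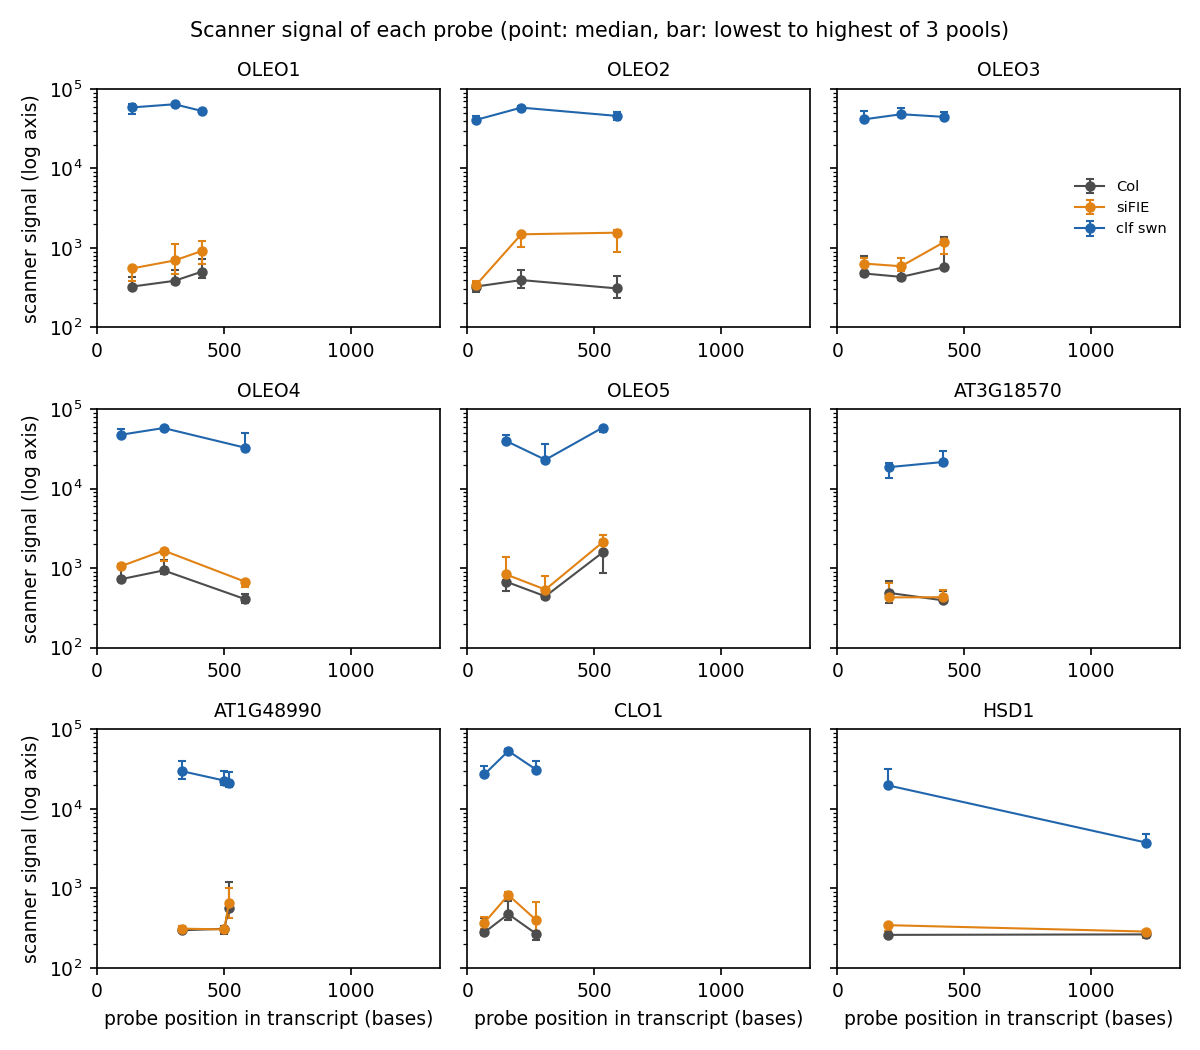
Scanner signal (log axis) of each probe of the 9 oil body genes against its position in the target sequence, with points for the median and bars from the lowest to the highest of the 3 pools of Col, siFIE and clf swn. All 25 probes are raised in clf swn, and in siFIE the OLEO2 probes at positions 213 and 591 stand apart from Col while the probe at position 35 does not.

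Other genes of the same protein families did not all rise. Of 15 further oleosin-type, caleosin and steroleosin genes with a name in the reference, 5 rose and 1 fell in clf swn. Their median log2 difference there was 0.38. In siFIE 5 of the 15 rose and none fell, with a median of 0.40. The shares over all genes were 8.78% up and 12.8% down in clf swn, and 4.51% up and 3.19% down in siFIE. Of 6 further loci listed with these families but without a name in the reference, 3 rose in clf swn and 1 in siFIE, and none fell. The 3 named genes with the smallest p in clf swn were ATPXG2, another caleosin-type peroxygenase, which rose by 243-fold, and the steroleosins HSD5 and HSD6, which rose by 225-fold and 88.3-fold. ATPXG2 was at 50.9, 44.8 and 44.0 in Col and 72.7, 67.3 and 61.3 in siFIE, HSD5 at 91.5, 76.2 and 69.3 against 191, 200 and 184, and HSD6 at 82.0, 100.1 and 108 against 576, 535 and 514. HSD5 (2.44-fold) and HSD6 (5.63-fold) thus also rose in siFIE, and ATPXG2, at 1.44-fold, was not called. Of the glycine-rich oleosins of the anther and pollen coat, GRP14 rose in both mutants, by 9.26-fold in clf swn and by 2.64-fold in siFIE. GRP19 rose by 5.36-fold in siFIE and was at 1.29-fold in clf swn. These 2 genes were named after their values were seen. Without background correction only RD20 of the 5 siFIE calls was left.

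RD20, a caleosin that responds to drought and abscisic acid and is expressed in leaves, was the family member that fell. Its signal was 6419, 7317 and 7505 in Col, 20520, 22776 and 20748 in siFIE, and 778, 768 and 734 in clf swn. The groups did not overlap, with siFIE highest, Col between and clf swn lowest, whereas clf swn was highest for each of the 9 seed-type genes. It rose by 3.02-fold in siFIE (adjusted p = 1.5e-05), fell by 9.30-fold in clf swn (adjusted p = 2.3e-08), and was 28.1-fold lower in clf swn than in siFIE (adjusted p = 3.9e-09). CLO4, a further caleosin, was 2.19-fold lower in clf swn than in siFIE and was not called against Col in either mutant. It too was named after its values were seen. OBAP1A, an oil body-associated protein of another family, was at 87.5, 50.6 and 31.8 in Col, at 57.1, 52.7 and 72.3 in siFIE, and at 18297, 16850 and 22350 in clf swn, a 366-fold increase in clf swn (adjusted p = 4.2e-08) with no call in siFIE (1.16-fold). It was the only named gene of its list. Of 9 further lipid droplet loci of other families, without a name in the reference, 5 rose in clf swn and 1 in siFIE, and none fell. Over the whole array, 8.78% of genes were called up in clf swn and 4.51% in siFIE.

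Most genes for making oil were not called. Of 16 genes of fatty acid and triacylglycerol synthesis 4 rose and none fell in clf swn, where 8.78% of all genes were called up. Their median log2 difference was 0.34 in clf swn and -0.06 in siFIE, where none was called. AT3G44830, listed with them but without a name in the reference, rose by 27.3-fold in clf swn and was not called in siFIE. It was named after its values were seen. FAE1, which elongates fatty acids in seeds, rose by 295-fold, from 135, 69.4 and 69.6 in Col to 26055, 24884 and 25999. WRI1, a transcription factor for fatty acid synthesis, rose by 4.03-fold. DGAT1, which catalyses the last step of triacylglycerol synthesis, rose by 2.18-fold from an already bright signal of 13074, 14074 and 13656. ROD1, which exchanges phospholipid headgroups, rose by 2.45-fold. Of 11 genes for oil mobilisation 3 rose in clf swn, the malate synthase MLS by 10.3-fold, the isocitrate lyase ICL by 2.28-fold and the beta-oxidation enzyme MFP2 by 2.15-fold. MLS also rose by 2.26-fold in siFIE.

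Among 14 transcription factors and other regulators of seed maturation, 12 rose in clf swn and 4 in siFIE, and none fell. Their median log2 difference was 4.07 in clf swn and 0.17 in siFIE. Over all genes, 8.78% were called up in clf swn and 4.51% in siFIE. The 3 regulators with the smallest p in clf swn were ABI4, L1L and ABI3, which rose by 499-fold, 151-fold and 684-fold. ABI3, a B3-domain activator of seed storage and oleosin genes, was at 61.8, 76.2 and 34.5 in Col, at 440, 692 and 477 in siFIE, and at 35990, 36336 and 39878 in clf swn, so that siFIE lay between the other two without overlap. The other siFIE increases were those of ABI4 (10.2-fold), ABI5 (3.08-fold) and LEC2 (2.85-fold), and that of LEC2 was lost without background correction. L1L was at 51.9, 43.9 and 64.4 in Col and 52.5, 70.2 and 56.5 in siFIE. Of 5 repressors of seed genes VAL1 rose, by 2.09-fold in clf swn, and none fell.

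**Figure D4:**
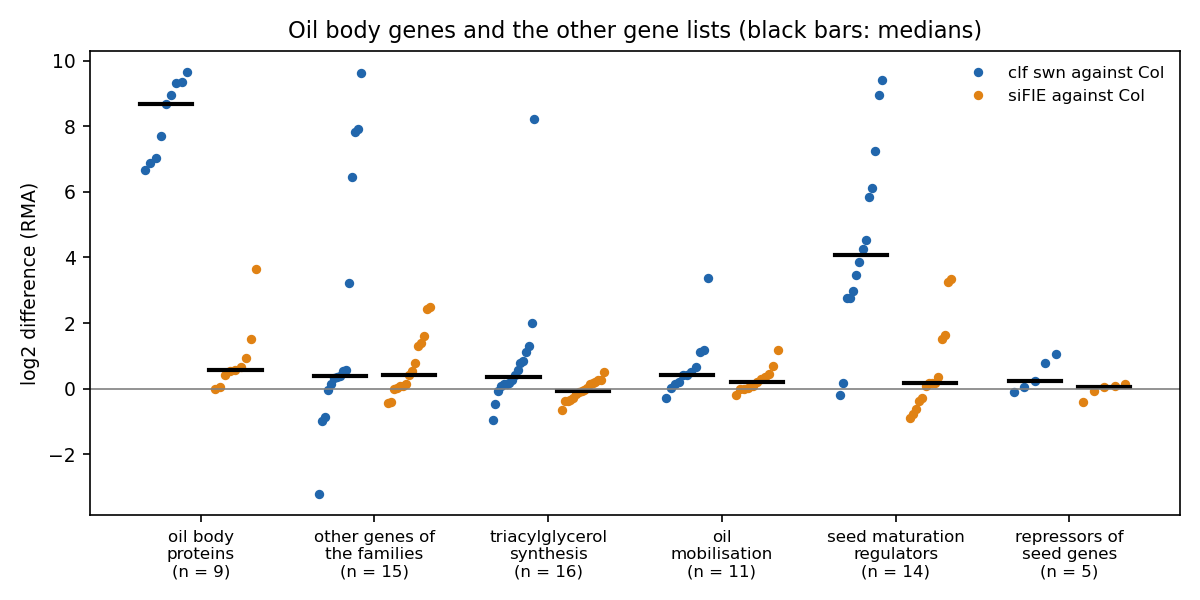
Log2 difference from Col in clf swn and siFIE for the 9 oil body genes and for 5 other gene lists, 1 point per gene, black bars for the medians. In clf swn the median is 8.68 for the oil body genes, 4.07 for the seed maturation regulators, and 0.34 and 0.42 for oil synthesis and mobilisation, and single genes of other lists, such as ABI3 and FAE1, lie within the range of the oil body genes.

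Markers of leaf and root differed between the groups as well. Of 5 leaf marker genes 3 fell in clf swn (LHCB2.1 by 13.1-fold, PSAF by 3.95-fold and RCA by 2.73-fold), where 12.8% of all genes were called down. The summed RMA signal of the 5 was 229253 to 246538 in Col, 202749 to 214106 in siFIE and 94248 to 101082 in clf swn. Of 4 root markers 3 fell in clf swn (CASP1, EXPA7 and COBL9), and PYK10 was not called there. The sums of the 4 were 61939 to 68989, 65185 to 67434 and 57845 to 63705 in the same order, so those of Col and clf swn overlapped. The 3 anther and tapetum markers summed to between 297 and 478 in all pools, and none of them rose against Col in either mutant, while MS2 fell by 2.44-fold in clf swn, a call lost with each of the 3 fits to probe signals. GRP17, a defining pollen coat oleosin, was between 29.5 and 56.6 throughout. The part of these shifts in the oil body results was not tested, and in RNA of whole seedlings fewer or more cells of a type and less or more RNA per cell cannot be told apart.

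The genes of the array whose pattern over the 9 arrays was closest to the median pattern of the 9 oil body genes, by the Euclidean distance of log2 deviations from the gene's own Col mean, were ATOEP16-2 (0.597), RTNLB13 (0.614), HVA22B (0.728), AT1G04560 (0.981), PAP85 (1.00), SESA4 (1.04), AT2G21720 (1.09) and AT5G07330 (1.11). SESA4 encodes a seed storage albumin, RTNLB13 a reticulon-like protein of the endoplasmic reticulum, and ATOEP16-2 a protein of the outer plastid envelope. SESA4 was at 180, 183 and 155 in Col, at 170, 327 and 292 in siFIE, and at 54083, 52622 and 52454 in clf swn. Of the 9 themselves, HSD1 lay nearest to their median pattern (0.278) and OLEO2, with its siFIE increase, farthest (5.72). The next nearest was AT1G48990 (1.57), so each outside gene listed here lay closer to the median pattern than any of the 9 but HSD1.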

How the data were processed

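Of each array the authors deposited the probe intensities, linear and not normalized, as exported from NimbleScan 2.4.31, and 1 linear RMA intensity for each gene. RMA is named in the submitters' processing notes, its software and settings in none of the sources used here. The median probe signal was 1213 to 2370.1 and the median RMA signal 1116 to 1169 between arrays, with 0 to 15 saturated probes of 72000. The number of arrays limits the precision. Log2 of the RMA intensity was fitted with limma 3.58.1 in R 4.3.3, and summaries were made in Python 3.11.15. Settings tried were other background corrections and scalings of the probe intensities, a filter at the 25th percentile, the 6 arrays of a comparison alone, a replicate block, Student's test, each array left out, and no fold limit. The test script was run on simulated data first.

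The 9 genes and the other gene lists were chosen with earlier results of these data known, and the lists carry no test. Of 95 other listed genes 76 were used, 1 was not found on the array and 18 had no name in the reference annotation (RefSeq, TAIR10.1). No coordinates from that annotation are given here. Named genes were the 9, the targeted genes, of each list up to 3 with the smallest p in clf swn, those that fell where 3 or fewer did, those called in siFIE where 3 or fewer were, and the 8 nearest patterns. Others were named after their values were seen, among them ROD1, ABI5 and LEC2. Promoter and protein sequences were not analysed here.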

Additional observations from a re-analysis of the deposited data

How the results depend on the processing

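Across 19 alternative settings all 9 genes were called up in clf swn against Col and against siFIE, and no difference changed its direction past the threshold. Some of these settings are no support. The filter on low signals is one, since genes dim in Col pass it through their clf swn level. The RMA values of the series table were the same values, and dropping the fold limit can only add calls. Leaving out an array of a group outside the comparison leaves the difference itself unchanged. The median log2 difference between clf swn and Col was 6.12 without background correction, 6.80 with normexp and quantile normalization and 6.87 with normexp and median scaling. Between clf swn and siFIE it was 5.93, 6.35 and 6.48 in the same order. Between siFIE and Col it was 0.37 without background correction. The count of genes called in siFIE, 2 with RMA, was 1 with each of the 3 probe settings and 1 with Student's test, each time through the loss of OLEO1, and 4 with no fold limit (OLEO5 and HSD1 added). With each array left out in turn, it was 2 to 3, CLO1 being added without siFIE replicate 1. The counts in the other comparisons stayed at 9, and the medians ranged from 8.60 to 8.79 for clf swn against Col, 0.52 to 0.68 for siFIE against Col and 7.09 to 7.35 for clf swn against siFIE. With the replicate number as a block, 9, 2 and 9 genes were called. The numbers do not pair the pools: of 9 pairs of pools with the same number, 1 had a correlation of deviations over 0.1 (range -0.16 to 0.17), and 1 of 9 arrays correlated best with its own number. A block for slide or scan could not be fitted. The scanner image names gave 9 different numbers, read here as 9 slides, and all 9 arrays were scanned on 1 day. No label states the slides, so arrays sharing a slide cannot be told from these numbers with certainty. The folds of dim genes and the clf swn level of OLEO1, at the top of the scale, are the values least fixed by these arrays.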

Other observations

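The 18 listed loci without a name in the reference used were left out of the counts of named genes. Of these 9 rose in clf swn and 2 in siFIE, and none fell in either against Col. The shares of all genes called up were 8.78% and 4.51% in the same order. AT2G25890 rose by 111-fold in clf swn and AT5G61610 by 69.7-fold. The lipid droplet loci AT2G47780 and AT5G16460 rose by 182-fold and 53.8-fold, and AT2G47780 also rose by 5.69-fold in siFIE. AT1G70680, the other locus that rose in siFIE, ran the other way in clf swn against siFIE. It had RMA signals of 32.9, 48.4 and 38.2 in Col, 1086, 971 and 1362 in siFIE, and 41.4, 41.0 and 67.5 in clf swn. The siFIE pools stood apart from both other groups, which overlapped. It was 28.7-fold higher in siFIE than in Col (log2 4.84, SE 0.23, limma adjusted p = 1.8e-06), 4.73-fold without background correction, and 23.2-fold lower in clf swn than in siFIE (adjusted p = 5.1e-07). Like RD20, CLO4 and GRP19, it was higher in siFIE than in clf swn, whereas the 9 oil body genes were higher in clf swn. These loci were named after their values were seen.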
